A study of Mus musculus with 8 samples.

Results

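The genes described here are 41 genes of DNA replication and S phase, the stage of the cell cycle in which a cell copies its genome. They were taken by symbol from a table of 43430 gene IDs, and comprise 5 regulators of the step from G1 into S phase and 36 genes of the replication machinery. All 41 were found and all 41 passed the filter on low counts, among 12689 genes tested. RNA had been sequenced from lung endothelial cells, collected as CD31+ cells by flow sorting from C57BL/6 mice at postnatal day 15. The knockout (KO) libraries came from mice in which the mitochondrial complex III subunit QPC was deleted in endothelial cells by tamoxifen given on days P0 to P4, and the wild type (WT) libraries carry the same tamoxifen treatment in their labels. Each group had 4 libraries. The driver of the deletion is not named in the labels. Nothing in them ties each library to an animal of its own, and the p-values therefore cover the variation among these libraries, some of which may be technical.

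Before S phase, origins of replication are licensed: the origin recognition complex, Cdc6 and Cdt1 load the ring-shaped MCM2-7 helicase onto DNA. Cyclin D and cyclin E kinases release E2F transcription factors, whose targets include many of the genes described here, and the helicase is then activated by Cdc45 and the GINS complex. Primase and DNA polymerases copy the strands with the sliding clamp PCNA, ligase 1 and Fen1 join the lagging strand, and Uhrf1, Dnmt1 and the CAF-1 complex restore DNA methylation and histones behind the fork. In the mouse lung the weeks after birth are a time of endothelial growth, when many of these cells still divide.

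QPC was taken to be the product of Uqcrq. Uqcrq was at 1.59, 15.6, 9.57 and 13.97 CPM (counts scaled to a common library size with TMM factors) in KO replicates 1 to 4, against 26.3, 24.5, 26.8 and 31.5 CPM in WT replicates 1 to 4. Every KO library lay below every WT library, with KO replicate 1 far below the others, although the fitted difference did not pass the threshold (log2 fold change -1.42, SE 0.53, edgeR adjusted p = 0.179). The deepest library was KO replicate 4 with 13981329 counts and the shallowest WT replicate 3 with 6407924. The share of tested genes with no count was 10.3% in KO replicate 1 and 12.05% in WT replicate 3, against 1.42% to 6.08% in the other 6 libraries. The 9 endothelial markers summed to 12135 to 15706 CPM in KO and 13922 to 16645 CPM in WT. Of the 9, 2 were called lower in KO, beside 1.39% of all tested genes. The 8 alveolar type 2 epithelial markers summed to 3644 to 16005 CPM in KO and 3805 to 21996 CPM in WT, and 6 fibroblast markers to 248 to 1271 CPM in KO and 264 to 1318 CPM in WT, with none called. The 9 leukocyte markers summed to 395 to 1494 CPM in KO and 411 to 2005 CPM in WT. Only 4 of the 9 passed the filter and were tested, and none of these was called. Most of that sum was Lyz2. The 8 leukocyte markers other than Lyz2 summed to 6.30 to 29.0 CPM in KO and 3.88 to 30.05 CPM in WT, with Itgax at 0 in every library. None of the markers of alveolar type 1, airway, mural, platelet or lymphatic endothelial cells was called either. Apart from the type 2 level, the part of other cells in the results was not tested.

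Promoter stretches are shown for 3 genes. These are the called member of the MCM2-7 ring, the MCM2-7 gene with the next largest fitted difference, and the called member of the chromatin group. Each stretch runs from 250 bases before a RefSeq transcription start (GRCm38.p6) to the base before it, on the strand of the gene. Capitals mark letters of the E2F motif, searched as TTTCCCGC, TTTGGCGC and TTTCGCGC on both strands.
Mcm6, chr1:128359706-128359955, minus strand: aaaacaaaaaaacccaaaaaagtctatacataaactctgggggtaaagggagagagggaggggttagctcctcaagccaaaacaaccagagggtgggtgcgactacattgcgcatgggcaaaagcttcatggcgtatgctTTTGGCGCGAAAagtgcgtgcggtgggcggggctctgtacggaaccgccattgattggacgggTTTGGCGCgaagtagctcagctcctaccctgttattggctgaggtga
Mcm5, chr8:75109259-75109508, plus strand: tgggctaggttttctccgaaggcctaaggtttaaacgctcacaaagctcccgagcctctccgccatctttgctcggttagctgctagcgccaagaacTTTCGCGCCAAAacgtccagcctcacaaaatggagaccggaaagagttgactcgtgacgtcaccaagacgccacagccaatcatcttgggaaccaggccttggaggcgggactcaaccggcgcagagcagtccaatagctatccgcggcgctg
Uhrf1, chr17:56304063-56304312, plus strand: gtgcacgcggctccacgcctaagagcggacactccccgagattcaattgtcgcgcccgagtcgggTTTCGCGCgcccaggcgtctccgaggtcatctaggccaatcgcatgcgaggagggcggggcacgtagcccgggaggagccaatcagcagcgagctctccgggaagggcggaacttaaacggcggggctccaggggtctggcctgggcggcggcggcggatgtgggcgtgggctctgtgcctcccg
The Mcm6 stretch holds 3 matches, whose first bases lie at -110, -106 and -47 from the start, of which the first and second overlap on opposite strands. The Mcm5 stretch holds 2 matches that overlap in the same way, at -153 and -149. Uhrf1 has a match at -185 from the second of its RefSeq starts, and none before the first. The Uhrf1 stretch shown, before the second start, lies inside the annotated span of the gene (chr17:56303321-56323486) and not ahead of it. A match is a description of letters in this window and not evidence of binding.

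Of the 41 genes, 31 have a promoter window in the RefSeq table. An E2F match lay in the window, counted here from 250 bases before the start to 50 after it, for 15 of the 31, against 2.12% of 27025 genes in the table (genes of chromosome 18 left out). By role these were 4 of 5 MCM2-7 genes, 3 of 4 licensing genes, 2 of 4 polymerase and primase genes, 2 of 4 chromatin genes, and 1 gene each among the G1/S regulators (E2f2), helicase activation (Gins3), the clamp group (Rfc3) and strand joining (Lig1), with none for Rpa1 or Rpa2. The CCAAT box was in the windows of 20 of 31 members and 41.1% of all genes, and the letters TTTGAA were in those of 6 of 31 members and 20.2% of all genes. The 15 genes with an E2F match had a median log2 fold change of 0.72 in KO over WT, with 2 of them called, and the 16 without one had a median of 0.79, with none called. The 10 genes absent from the table, Ccnd1 among them, had a median of 1.01. For E2f1, without a match, and for Cdc6 and Mcm7, with one, every window lay inside the annotated span of the gene. The bases before the annotated starts of these genes were therefore not searched. For Dnmt1, Lig1 and Uhrf1 the matches lay only in a window inside that span.

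The comparison of KO with WT cells asks how deletion of the complex III subunit QPC in the endothelium bears on these transcripts. Of the 41 genes, 3 were called higher in KO, the cyclin gene Ccnd1, the helicase gene Mcm6 and the methylation cofactor gene Uhrf1, and none was called lower. A gene was called at a Benjamini-Hochberg adjusted p under 0.05 in edgeR's quasi-likelihood test over all 12689 genes, of which 2.25% were called higher and 1.39% lower (285 and 176 genes). In either direction 3.63% were called. With KO replicate 3 left out, 173 genes of the whole table were called higher and 97 lower, and leaving out KO replicate 2 or WT replicate 2 gave 105 or 111 lower. Fitted log2 fold changes of all 41 genes lay above 0, ranging from 0.03 for Pola2 to 1.97 for Orc1, with a median of 0.77, while 51% of all tested genes lay above 0 and their median was 0.01. Of the 41, 36 lay above 0 in each of 24 alternative analyses, the other 5 being Pola2, Fen1, Pcna, Gins3 and Gins4. E2f1 and Lig1 passed the threshold in some of these analyses, and 36 of the 41 passed it in none. Before adjustment, 11 of the 41 had p under 0.05 in the higher direction, beside 8.69% of all tested genes, and none in the lower direction, beside 6.53%. All KO libraries lay above all WT libraries for 6 of the 41 (Ccnd1, E2f1, Mcm6, Pole, Rfc4 and Uhrf1), beside 6.94% of all tested genes, and none had all KO libraries below all WT libraries, beside 4.67%. Without KO replicate 4 the median of the 41 was 0.42 and 38 of them lay above 0. With the summed type 2 markers as a term in the fit, 3 of the 41 were called, and likewise 3 without WT replicate 3 and KO replicate 1 together. In bulk RNA, more cells in S phase and more of these transcripts per cell cannot be told apart.

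**Figure D1:**
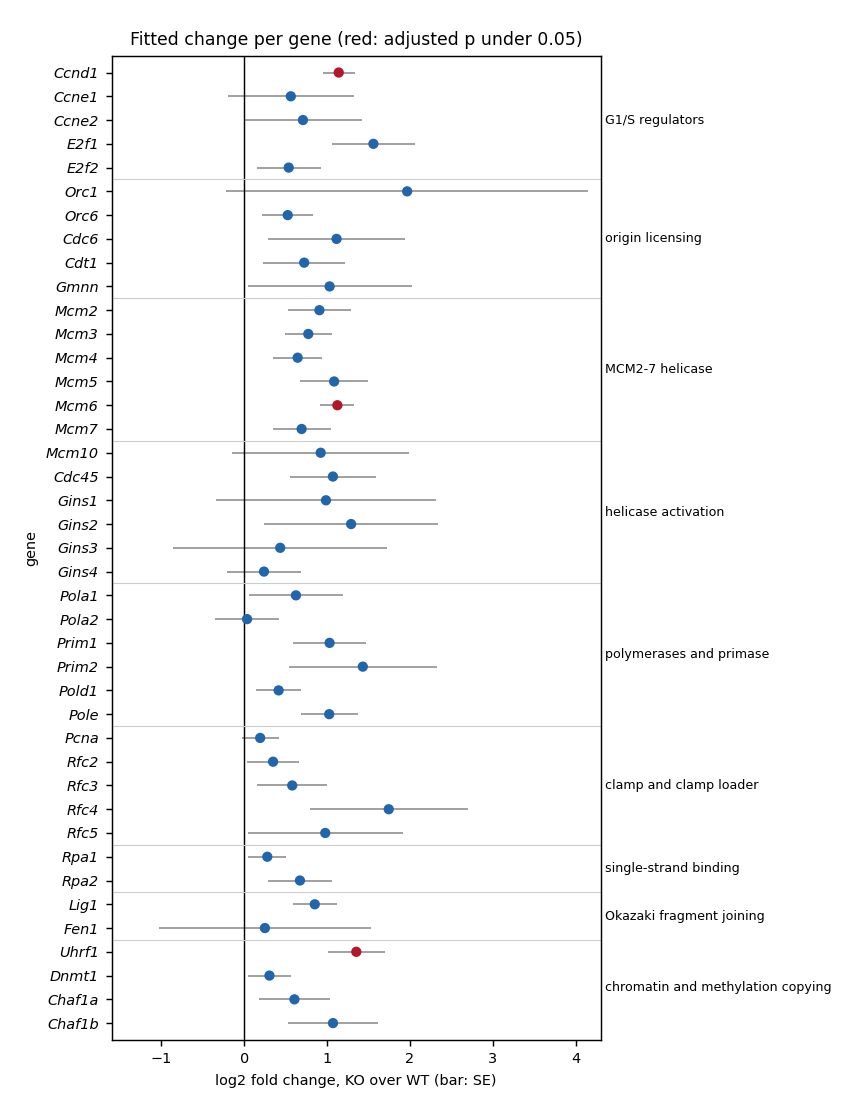
Fitted log2 fold change of each of the 41 genes, KO over WT (points, horizontal axis), with its SE (bars), grouped by role down the page. Every point lies right of 0, and the red points, Ccnd1, Mcm6 and Uhrf1, are those past an adjusted p of 0.05.

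The median log2 fold change was 0.71 over the 5 G1/S regulators and 0.81 over the 36 machinery genes. Of the 5 regulators 1 was called, and 2 of the 36 machinery genes, beside 2.25% of all tested genes called higher. The difference between the 2 groups of genes was not tested. Without KO replicate 4 the medians were 0.29 for the regulators and 0.43 for the machinery. The order of the 2 medians turned in 9 of 24 alternatives, among them those without KO replicate 1 (1.03 for the regulators, 0.93 for the machinery), WT replicate 1 (1.01 and 0.79) and WT replicate 3 (1.03 and 0.71).

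Among the G1/S regulators, Ccnd1 encodes cyclin D1, the partner of Cdk4 and Cdk6 that passes growth factor signals to the Rb protein. The gene (ENSMUSG00000070348, chr7:144929931-144939925, minus strand, GRCm38) was at 585, 309, 502 and 494 CPM in KO replicates 1 to 4, against 262, 239, 161 and 194 CPM in WT replicates 1 to 4. The lowest KO library, replicate 2, lay above the highest WT library, replicate 1. Ccnd1 averaged 473 ± 117 CPM in KO and 214 ± 45.4 CPM in WT (SD, n = 4 each), a log2 fold change of 1.14 with SE 0.19 (edgeR adjusted p = 0.00333). Exons of a gene on the opposite strand, LTO1, overlap 23.4% of its exon length, and the strand setting of the counting is not given in the sources used here. Ccnd1 was highest in KO replicate 1 among the KO libraries, where the summed level of the machinery genes was lowest. Of the machinery genes, Rfc3 and Rpa1 were also highest there.

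E2f1, an activating member of the E2F family, was at 19.9, 24.3, 27.8 and 62.9 CPM in KO, against 19.8, 13.5, 3.44 and 8.81 CPM in WT. The groups did not overlap, but KO replicate 1 and WT replicate 1 were nearly level, and the difference did not pass the threshold (log2 fold change 1.56, SE 0.50, edgeR adjusted p = 0.110). E2f2, a second activating E2F, was at 14.1, 24.03, 23.97 and 41.8 CPM in KO and 12.8, 17.4, 20.6 and 20.7 CPM in WT, with 3 KO libraries above the highest WT library (log2 fold change 0.54, edgeR adjusted p = 0.618).

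Ccne1 and Ccne2 encode cyclins E1 and E2, the partners of Cdk2 at the start of S phase. Ccne1 was at 6.46, 7.98, 8.55 and 15.6 CPM in KO and 11.7, 5.18, 6.13 and 3.13 CPM in WT (log2 fold change 0.56, edgeR adjusted p = 0.856). Ccne2 was at 4.87, 25.1, 17.6 and 36.8 CPM in KO and 12.7, 4.49, 31.4 and 3.38 CPM in WT (log2 fold change 0.71, edgeR adjusted p = 0.781). The groups overlapped for both, and in WT Ccne2 varied with an SD of 12.96 CPM around a mean of 12.99 CPM (n = 4).

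**Figure D2:**
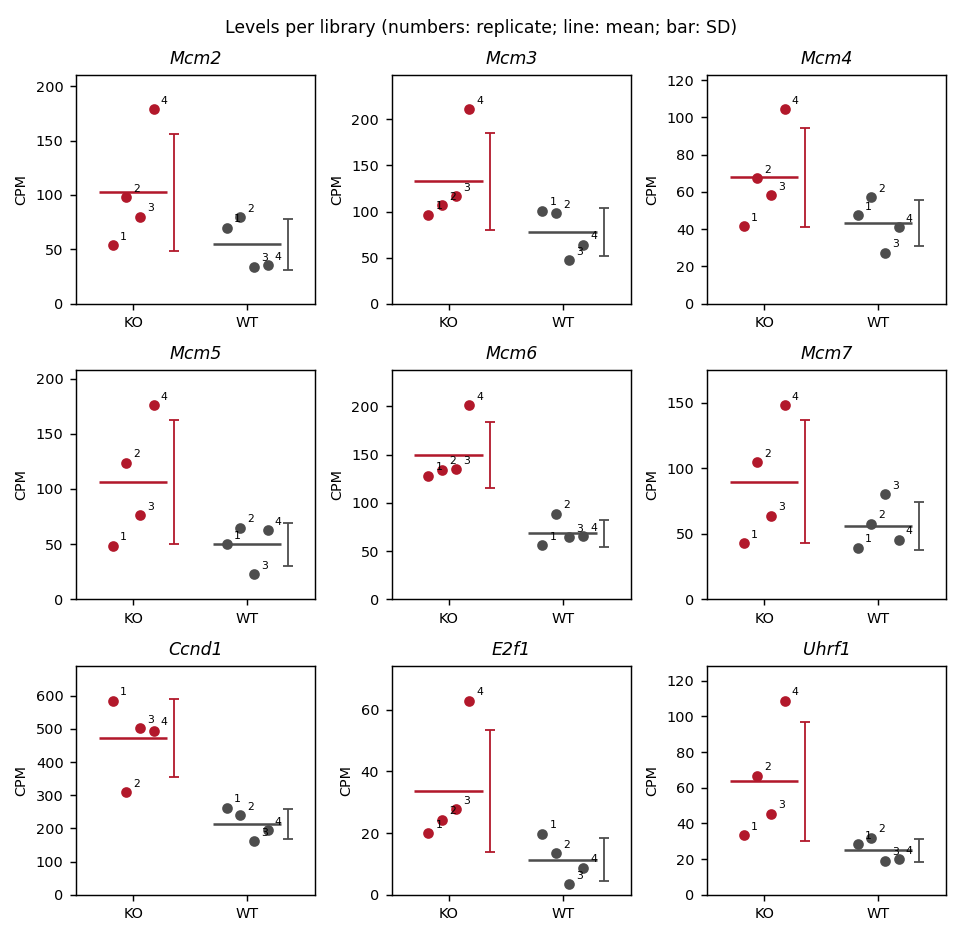
Level in CPM (vertical axes, each starting at 0) of the 6 MCM2-7 genes, Ccnd1, E2f1 and Uhrf1 in each KO library (left of each panel) and each WT library (right); numbers mark the replicate, lines the mean and bars the SD. Ccnd1, E2f1, Mcm6 and Uhrf1 have every KO library above every WT library, while the groups overlap for the other MCM genes.

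Of the MCM2-7 genes, which encode the 6 subunits of the replicative helicase, 1 was called and 5 had p under 0.05 before adjustment. Their median log2 fold change was 0.84. Over all tested genes 2.25% were called higher and 8.69% had p under 0.05 in the higher direction. Mcm6 (ENSMUSG00000026355, chr1:128331590-128359664, minus strand) was at 128, 134, 135 and 201 CPM in KO replicates 1 to 4, against 56.1, 88.6, 64.3 and 65.4 CPM in WT replicates 1 to 4. All KO libraries lay above all WT libraries, KO replicates 1 to 3 being close to each other. Mcm6 averaged 149.6 ± 34.7 CPM in KO and 68.6 ± 13.9 CPM in WT (SD, n = 4 each), a log2 fold change of 1.12 with SE 0.20 (edgeR adjusted p = 0.00467).

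The other 5 subunits were higher on average in KO, but KO replicate 1 lay within the WT range for each of them. Mcm2 was at 53.7, 98.2, 80.1 and 178.5 CPM in KO and 69.8, 79.3, 33.9 and 35.5 CPM in WT (log2 fold change 0.91, edgeR adjusted p = 0.271). Mcm3 was at 96.7, 107, 117 and 211 CPM in KO and 101, 97.9, 47.4 and 64.2 CPM in WT (log2 fold change 0.77, edgeR adjusted p = 0.172). Mcm4 was at 41.5, 67.3, 58.2 and 104 CPM in KO and 47.6, 57.1, 27.4 and 41.2 CPM in WT (log2 fold change 0.65, edgeR adjusted p = 0.309). For these 3 genes KO replicates 2, 3 and 4 all lay above the highest WT library. Mcm5 was at 48.6, 124, 76.4 and 176 CPM in KO and 49.9, 64.9, 22.6 and 62.5 CPM in WT (log2 fold change 1.09, edgeR adjusted p = 0.221). Mcm7, whose introns also carry microRNA genes, was at 42.6, 105, 63.8 and 148 CPM in KO and 39.2, 57.8, 80.4 and 45.4 CPM in WT (log2 fold change 0.69, edgeR adjusted p = 0.385). For Mcm5, too, the 3 other KO libraries lay above the highest WT library, whereas Mcm7 was high in WT replicate 3, the shallowest library, where the other 5 subunits were not the highest of their group.

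Per kilobase of exon, the 6 subunits averaged from 14.8 (Mcm2) to 35.4 (Mcm3) CPM in KO and from 7.85 (Mcm2) to 20.7 (Mcm3) CPM in WT. Mcm6 averaged 32.1 CPM per kilobase in KO, where it ranked next after Mcm3, and 14.7 in WT, where it also did. Summed over the 6 genes the level was 411, 635, 530 and 1019 CPM in KO and 364, 446, 276 and 314 CPM in WT. KO replicate 1 fell between WT replicates 1 and 2 on this sum, and the other 3 KO libraries were above all WT libraries.

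Origin licensing gave no call among 5 genes, with a median log2 fold change of 1.03. Orc6, a subunit of the origin recognition complex, had the smallest p of the group. It was at 26.3, 47.4, 35.8 and 50.5 CPM in KO and 18.3, 24.7, 31.8 and 36.5 CPM in WT, overlapping between the groups (log2 fold change 0.53, SE 0.31, edgeR adjusted p = 0.490). Orc1, another subunit, was the least abundant of the 41 per kilobase. It was at 0, 5.71, 2.61 and 6.66 CPM in KO and 0, 0, 3.89 and 0 CPM in WT, so the fitted value of 1.97 (SE 2.18) rests on 4 libraries with no read and is no bound. A floor of 3 counts is worth 0.217 to 0.448 CPM in these libraries. The loaders Cdc6 and Cdt1 had log2 fold changes of 1.11 and 0.72, and Gmnn, whose product geminin holds Cdt1 back, 1.03, with adjusted p from 0.596 to 0.768 in edgeR. For Gmnn WT replicate 3 was at 0.

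Helicase activation, the step in which Cdc45 and GINS join the MCM ring, also gave no call among 6 genes (median 0.95). Cdc45 was at 21.3, 22.9, 9.73 and 25.3 CPM in KO and 13.3, 13.8, 5.53 and 5.02 CPM in WT. KO replicates 1, 2 and 4 lay above every WT library (log2 fold change 1.07, SE 0.51, edgeR adjusted p = 0.341). The GINS subunit genes Gins1 to Gins4 and Mcm10, a factor that helps open the ring, had log2 fold changes from 0.24 to 1.29 and adjusted p of 0.696 or more in edgeR. Mcm10, Gins1 and Gins3 were at 0 in WT replicate 4 and Gins2 was at 0 in WT replicate 2, and exons of an opposite-strand gene, Gse1, overlap 67.3% of the exon length of Gins2.

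Among the 6 polymerase and primase genes none was called and 2 had p under 0.05 before adjustment (median 0.83), beside 8.69% of all tested genes in the higher direction. Pole, the catalytic subunit of the leading strand polymerase epsilon, was at 32.9, 35.8, 22.8 and 47.4 CPM in KO and 17.4, 21.1, 19.3 and 10.5 CPM in WT. The groups did not overlap, with KO replicate 3 close above WT replicate 2 (log2 fold change 1.03, SE 0.34, edgeR adjusted p = 0.124). Prim1, the small catalytic subunit of primase, had a log2 fold change of 1.03 (edgeR adjusted p = 0.266), and Prim2, the large subunit, 1.43 with WT replicate 3 at 0 (edgeR adjusted p = 0.549). Pola1 and Pola2, the catalytic and second subunits of polymerase alpha, had values of 0.62 and 0.03, and Pold1, the catalytic subunit of polymerase delta, 0.42, with edgeR adjusted p from 0.561 to 0.989. The direction of Pola2 turned under other size factors (log2 fold change -0.0033 with RLE factors).

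The clamp and its loader gave no call among 5 genes (median 0.58). Pcna, the sliding clamp, was the most abundant of the 41 per kilobase in WT (53.1 CPM per kilobase in KO, 46.5 in WT), with Ccnd1 next (100.4 in KO, 45.5 in WT). Pcna was at 90.5, 114, 115 and 190.2 CPM in KO and 95.6, 104, 147 and 99.8 CPM in WT. The groups overlapped widely, the lowest library being KO replicate 1 (log2 fold change 0.19, SE 0.22, edgeR adjusted p = 0.822), and the annotation holds 2 pseudogenes of Pcna that could share its reads. Without KO replicate 4 the Pcna value was -0.076. Rfc4, a subunit of the clamp loader, was at 11.3, 11.7, 13.5 and 18.6 CPM in KO and 3.01, 7.50, 0 and 5.84 CPM in WT. Its groups did not overlap (log2 fold change 1.74, SE 0.95, edgeR adjusted p = 0.438), and 12.7% of its exon length overlaps an opposite-strand gene. The loader subunits Rfc2, Rfc3 and Rfc5 had log2 fold changes of 0.35, 0.58 and 0.98 with edgeR adjusted p from 0.624 to 0.769.

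Rpa1 and Rpa2, subunits of the single-strand binding protein, were not called. Rpa2 was at 15.2, 34.2, 25.4 and 47.8 CPM in KO and 21.8, 23.6, 11.2 and 20.2 CPM in WT (log2 fold change 0.67, SE 0.39, edgeR adjusted p = 0.472). KO replicate 1 was the second lowest of the 8 libraries and the other 3 KO libraries were above all WT libraries. Lig1, the ligase of the lagging strand, was at 72.7, 103, 60.5 and 113.6 CPM in KO and 43.3, 32.7, 67.4 and 51.0 CPM in WT. KO replicate 3 lay below WT replicate 3, and the value came near the threshold without passing it (log2 fold change 0.85, SE 0.26, edgeR adjusted p = 0.0937). Fen1, the flap nuclease, reached at most 11.3 CPM in any library and was at 0 in KO replicate 1 (log2 fold change 0.25, SE 1.28, edgeR adjusted p = 0.977), with 78.8% of its exon length overlapped by an opposite-strand gene.

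In the chromatin group Uhrf1 was the called gene of 4 (median 0.84). Uhrf1 recognises DNA that is methylated on the parental strand only and recruits Dnmt1. The gene (ENSMUSG00000001228, chr17:56303321-56323486, plus strand) was at 33.4, 66.8, 45.3 and 109 CPM in KO replicates 1 to 4, against 28.4, 32.1, 19.1 and 19.9 CPM in WT replicates 1 to 4. The groups did not overlap, but KO replicate 1 stood close above WT replicate 2. Uhrf1 averaged 63.6 ± 33.2 CPM in KO and 24.9 ± 6.37 CPM in WT (SD, n = 4 each), a log2 fold change of 1.35 with SE 0.34 (edgeR adjusted p = 0.0371). Leaving out WT replicates 1, 2, 3 or 4 gave an edgeR adjusted p of 0.0652, 0.0561, 0.105 or 0.111, and leaving out KO replicates 2 or 4 gave 0.0888 or 0.186. The adjusted p ranged from 0.0030 to 0.186 over 24 alternative analyses, with 12 past the threshold. Dnmt1, the maintenance methyltransferase, had a log2 fold change of 0.31 (edgeR adjusted p = 0.705). Chaf1a and Chaf1b, subunits of the histone chaperone CAF-1, had values of 0.61 and 1.07 (edgeR adjusted p = 0.615 and 0.389), and 52.5% of the exon length of Chaf1a overlaps an opposite-strand gene.

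The KO libraries were not alike. KO replicate 4 was the highest of the KO libraries for 35 of the 41 genes and the highest of all 8 libraries for 28 of the 36 machinery genes. KO replicate 1 was the lowest KO library for 32 of the 41. Relative to the mean of WT, the median machinery gene stood at -0.01, 0.79, 0.40 and 1.39 in KO replicates 1 to 4 on a log2 scale with a pseudocount of 1 CPM, and at -0.08, 0.23, -0.09 and -0.21 in WT replicates 1 to 4. By this measure KO replicate 1 was among the WT libraries and the other 3 KO libraries were above them all. KO replicate 1 also had no count for 10.3% of tested genes, against 1.42% to 3.33% in the other KO libraries. The part of this in its position was not tested.

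**Figure D3:**
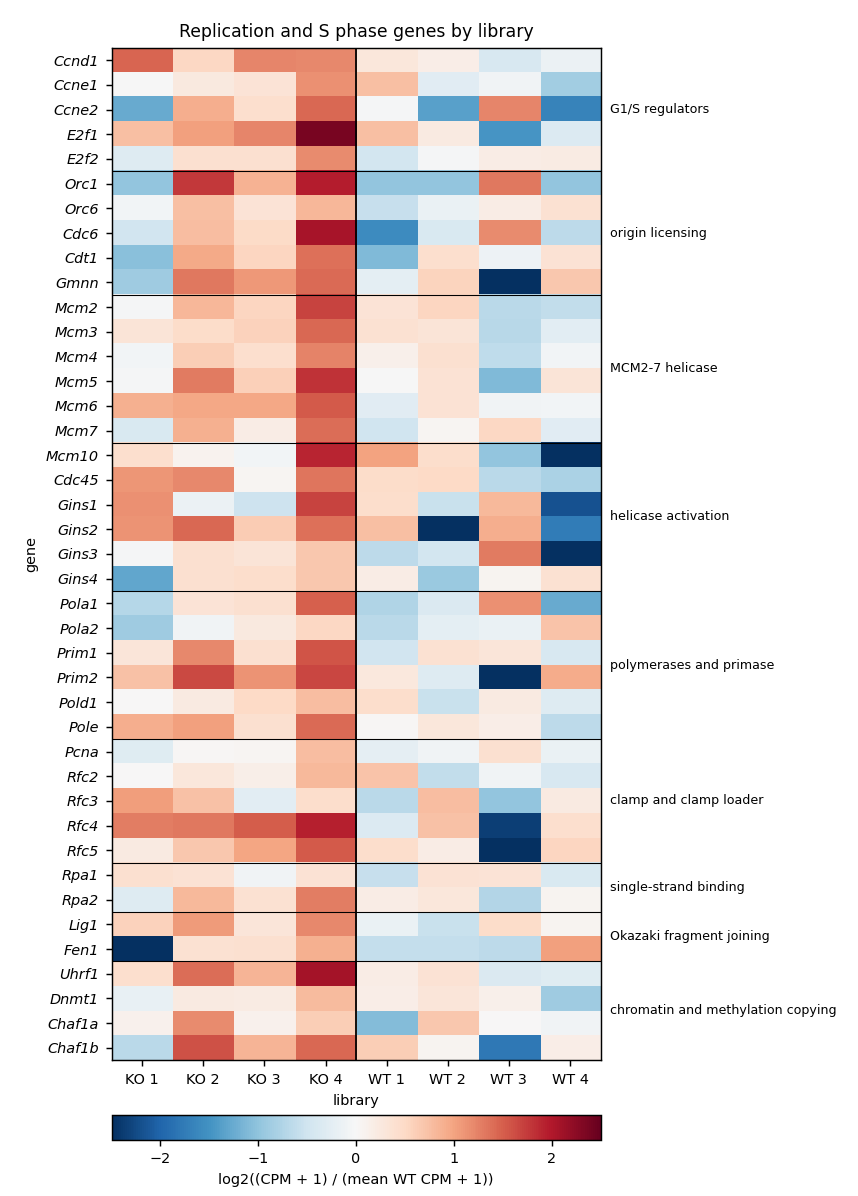
Log2 ratio of each library's CPM to the mean WT CPM, with 1 CPM added to both, for the 41 genes (rows, grouped by role) in KO replicates 1 to 4 (left columns) and WT replicates 1 to 4 (right columns); colours are capped at 2.5 in both directions. The column of KO replicate 4 is the highest for 28 of the 36 machinery genes, and that of KO replicate 1 is close to the WT columns.

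Summed over the 36 machinery genes the level was 1223, 1815, 1480 and 2589 CPM in KO and 1099, 1236, 1106 and 993 CPM in WT. KO replicate 1 lay below WT replicate 2 on this sum. The 5 G1/S regulators summed to 631, 390.2, 580.4 and 651 CPM in KO and 319.5, 279.7, 223 and 230.3 CPM in WT, with no overlap, a sum in which Ccnd1 holds the larger share. Spread was wider at low levels: for the 29 members with a mean under 50 CPM the median coefficient of variation was 44.5% in KO and 57.7% in WT, and for the 12 others 31.5% in KO and 32.1% in WT. Zero counts occurred for Orc1 and Fen1 in KO replicate 1, and for 1, 2, 4 and 4 members in WT replicates 1 to 4.

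The other genes of the pathway were read from lists of textbook members, chosen with earlier results of these data known. Of 38 further replication and S phase genes, 2 were called higher and none lower, 32 lay above 0 and the median log2 fold change was 0.74. Over all tested genes 2.25% were called higher, 1.39% were called lower and 51% lay above 0. The count of 2 was 5 without KO replicate 1, 0 without KO replicate 4 and 1 without any other single library. It was 5 with DESeq2, 4 with no filter and 7 with edgeR's newer dispersion option. With the length and GC trend removed it was 1, and 0 when a replicate block was added. Thinning all libraries to the smallest total gave 1. Rrm1, the large subunit of ribonucleotide reductase, was at 142, 148, 152 and 201 CPM in KO and 62.1, 107, 92.8 and 92.1 CPM in WT, without overlap (log2 fold change 0.86, SE 0.19, edgeR adjusted p = 0.0185, and 0.0737 without KO replicate 4). Tyms, thymidylate synthase, was at 15.5, 46.9, 43.0 and 79.7 CPM in KO and 19.4, 13.97, 10.9 and 17.5 CPM in WT, with KO replicate 1 inside the WT range (log2 fold change 1.58, SE 0.41, edgeR adjusted p = 0.0418). The Tyms call was lost without any 1 of the 4 WT libraries or KO replicates 2, 3 or 4, where the edgeR adjusted p was 0.0613 to 0.208. Over the 24 alternatives Tyms passed in 11 and Rrm1 in 22. Next by p came Dbf4, the activating subunit of the Cdc7 kinase, and Dut, which clears dUTP from the nucleotide pool, with log2 fold changes of 0.93 and 1.30 (edgeR adjusted p = 0.0814 and 0.0825). Dbf4 passed with DESeq2, and Dut in 4 of the 24 alternatives, DESeq2 among them.

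Of 21 other G1/S regulators 1 was called higher and none lower, with a median log2 fold change of 0.28 and 16 above 0. Before adjustment 4 of the 21 had p under 0.05 in the higher direction and 1 in the lower, beside 8.69% and 6.53% of all tested genes. The shares over all tested genes were 2.25% called higher and 51% above 0, so 1 call is near that share. The count of 1 was 2 without KO replicate 1, with no filter and with the newer dispersion option. It was 0 without WT replicates 2, 3 or 4 or KO replicates 2 or 4. With the length and GC trend removed, with or without a replicate block in the fit, it was also 0. Cdk4, the kinase that cyclin D1 activates, was at 204, 247, 187 and 342 CPM in KO and 145, 131, 143 and 149 CPM in WT. Every KO library lay above every WT library, and the WT libraries were close to each other (log2 fold change 0.79, SE 0.18, edgeR adjusted p = 0.0218). The Cdk4 call was lost without WT replicates 2, 3 or 4 or KO replicates 2 or 4 (edgeR adjusted p from 0.0549 to 0.0844). It was also lost in edgeR with the length and GC trend removed (adjusted p = 0.223), and with a replicate block added to that (adjusted p = 0.449). Ccna2 (cyclin A2), Cks1b (a Cdk-binding subunit) and Tfdp2 (an E2F partner) came next by p, with log2 fold changes of 0.94, 0.95 and -0.78 and edgeR adjusted p from 0.0932 to 0.249.

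Of 7 CDK inhibitor genes 6 were tested, at a median log2 fold change of -0.39. None was called by edgeR's test, while 1 had p under 0.05 before adjustment in the higher direction and 2 in the lower. Over all tested genes these shares were 8.69% and 6.53%. Cdkn1a, which encodes the inhibitor p21, was at 653, 218, 310.4 and 171 CPM in KO and 37.8, 132, 55.8 and 75.0 CPM in WT. The groups did not overlap (log2 fold change 2.17, SE 0.56, edgeR adjusted p = 0.0980). Cdkn1a passed the threshold with DESeq2 (adjusted p = 0.00360) and in edgeR with the Y-linked or the type 2 marker level as a term (adjusted p = 0.0105 and 0.0143), and its adjusted p ranged up to 0.619 over the 24 alternatives. Its order among the KO libraries, with replicate 1 highest and replicate 4 lowest, was the reverse of the order of the machinery sum, over 4 libraries only. Cdkn1b, Cdkn1c and Cdkn2d, which encode p27, p57 and p19, had log2 fold changes of -0.51, -0.77 and -0.44 (edgeR adjusted p = 0.238, 0.109 and 0.756), and Cdkn1c passed with voom and sample weights in limma (adjusted p = 0.0284).

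**Figure D4:**
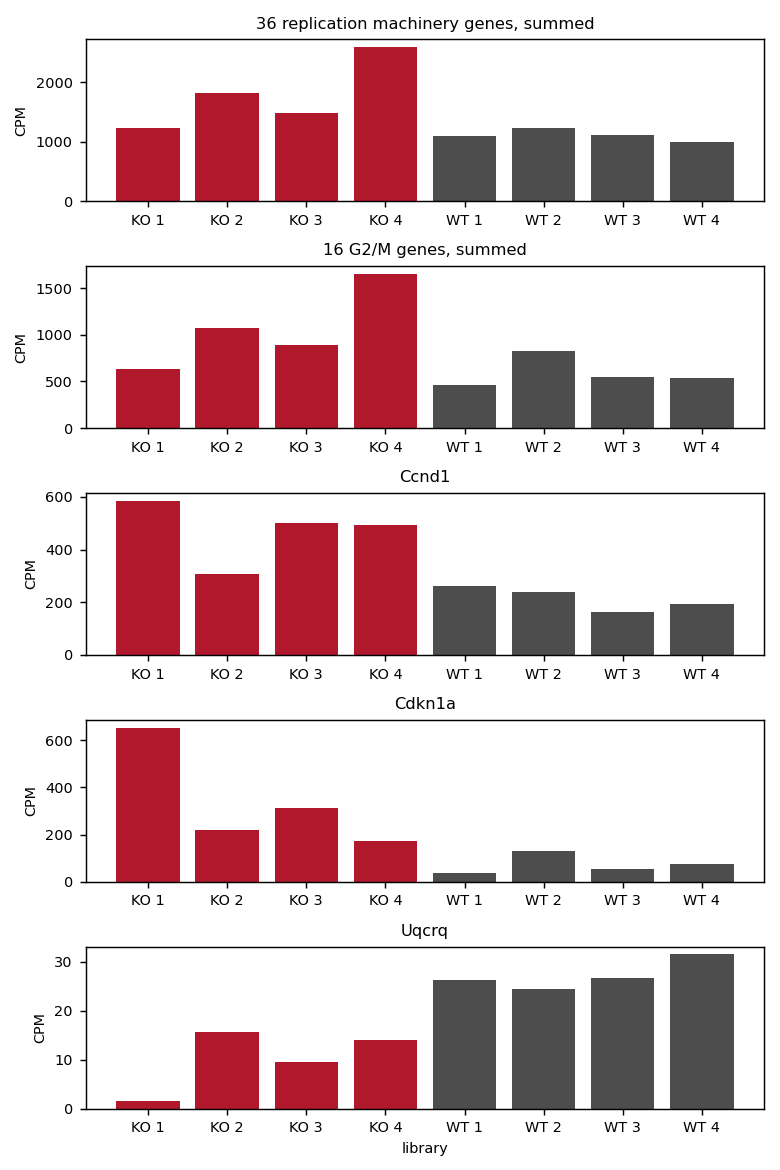
Level in CPM (bars, vertical axes from 0) in KO replicates 1 to 4 and then WT replicates 1 to 4 of gene sums and single genes named in each panel. The machinery sum is highest in KO replicate 4 (2589 CPM) and lowest among the KO libraries in replicate 1 (1223 CPM). In KO replicate 1 Cdkn1a is highest (653 CPM) and Uqcrq lowest (1.59 CPM), and 10.3% of tested genes have no count.

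Genes of G2 and mitosis, the stages after S phase, gave 1 call among 16, with all 16 above 0 and a median log2 fold change of 0.95. Before adjustment 10 of the 16 had p under 0.05 in the higher direction, beside 8.69% of all tested genes, and none in the lower. All KO libraries lay above all WT libraries for 4 of the 16, beside 6.94% of all tested genes. Among all tested genes 2.25% were called higher, a share that 1 call is near, and 51% lay above 0. The count of 1 was 3 without KO replicate 1 and 0 without WT replicate 3 or KO replicates 2 or 4. It was 2 with no filter, 3 with DESeq2 and with voom, 4 with voom and sample weights, and 5 with the newer dispersion option. With the length and GC trend removed, with or without a replicate block in the fit, it was 0. Plk1, a mitotic kinase, was at 26.4, 53.0, 30.1 and 49.96 CPM in KO and 10.9, 15.8, 9.12 and 18.5 CPM in WT, without overlap (log2 fold change 1.55, SE 0.36, edgeR adjusted p = 0.0217). The Plk1 call was lost without WT replicates 1 or 3 or KO replicates 2 or 4 (edgeR adjusted p from 0.0518 to 0.108). It was also lost in edgeR with the length and GC trend removed (adjusted p = 0.0721), and with a replicate block added to that (adjusted p = 0.108). Ube2c, a ubiquitin-conjugating enzyme of mitotic exit, Cdk1, the mitotic kinase, and Top2a, a DNA topoisomerase, had log2 fold changes of 1.43, 1.06 and 1.15 (edgeR adjusted p = 0.0932, 0.106 and 0.146), and each of the 3 passed in some of the alternatives. Summed over the 16 genes the level was 634, 1069, 888 and 1652 CPM in KO and 459, 831, 552 and 537 CPM in WT. As for the machinery, KO replicate 4 was highest and KO replicate 1 lay inside the WT range.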

How the data were processed

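The authors deposited raw read counts per Ensembl gene. The submitters' processing notes name HTSeq, TopHat, bcl2fastq and edgeR and the build mm10; versions, annotation release and strand setting were not found in the labels or headers. All 8 columns matched a label. Of 43430 gene IDs, 42462 had a symbol in GENCODE M21 (GRCm38); the others took 0.0792% to 0.101% of counts. Totals were 6407924 to 13981329.

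Counts were filtered (filterByExpr, minimum count 10, total 15), normalised with TMM and compared, KO over WT, with the robust quasi-likelihood F test of edgeR 4.0.16 in R 4.3.3 (genotype as the only term, Benjamini-Hochberg at 0.05). The common biological coefficient of variation was 63.5%. CPM are TMM-normalised; SE derive from the F statistic. The steps were tested on simulated data. Floors of 3 counts cover counting error only, since reads carry no molecular identifiers.

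Members, roles and lists were chosen with earlier results of these data known. Values per library are given for called members, MCM2-7, the G1/S regulators and the smallest p of each other role, with up to 4 genes per other list; Orc1 and Pcna were added after their values were seen. Alternatives were other size factors, filters, DESeq2 1.42.0, limma 3.58.1 (voom), dispersion options, covariates, a replicate block, removal of length and GC trends (from GENCODE transcripts), and leaving out libraries. Thinning to the smallest total, and leaving out WT replicate 3 and KO replicate 1 together, were added after the data were seen. One marker list is not reported here.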

Additional observations from a re-analysis of the deposited data

Results flagged for a closer look

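Among 58 genes in 2 groups of 4 libraries (116 sets of values), 8 held a library that stood apart from the other 3 of its group by Dixon's criterion at the 5% level. Chance alone gives about 1 in 20. The genes were the 41 members, Uqcrq, and up to 4 genes from each other cell cycle list. Those from the other lists were picked by smallest p in these same data. Of the 8, 4 were highest in KO replicate 4: Mcm6 at 201.4 CPM against 127.9 to 134.7 CPM in the other KO libraries, Mcm10 at 27.59 CPM against 6.251 to 9.178 CPM, and Cdk1 at 117.9 CPM against 53.09 to 58.44 CPM. The fourth, Rrm1, was at 200.7 CPM against 142.5 to 152.4 CPM. Rpa1 was lowest in KO replicate 3, at 88.14 CPM against 120.4 to 124.5 CPM in the other KO libraries. In WT, Orc1 was at 3.887 CPM in replicate 3 and at 0 in the other 3 libraries. Pcna was at 146.8 CPM in WT replicate 3 against 95.61 to 104.3 CPM, and Fen1 at 11.28 CPM in WT replicate 4 against 2.84 to 3.019 CPM. WT replicate 3 is the shallowest library; the part of depth in its values was not tested.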

How the results depend on the processing

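No member was called lower in any of 24 alternative analyses, and 36 of the 41 lay above 0 in each. Ccnd1 and Mcm6 passed the threshold in 23 of 24, the exception being the replicate block with the length and GC trend removed (adjusted p = 0.0700 for Ccnd1 and 0.0887 for Mcm6). Members called higher were 5 with no filter and 5 with edgeR's newer dispersion option (E2f1 and Lig1 in addition), 0 under the block with the trend removed, and 2 to 3 on leaving out each library. Over all genes, DESeq2 called 788 (371 lower), the newer option 747 (450 higher, 297 lower), voom with sample weights 283 lower, the trend removal 190 (74 higher, 116 lower) and the block with trend removal 117 (44 higher, 73 lower). Leaving out each library gave 270 to 446 genes, 173 to 259 higher and 97 to 187 lower; the median of the members was 0.42 to 0.93 and 38 to 41 lay above 0. The trend removal moved the median of all genes to -0.10, from 0.01.

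Same-numbered libraries did not deviate together over the tested genes (r = -0.096, -0.104, -0.005 and 0.004 for numbers 1 to 4). The labels do not say whether the numbers mark pairs. The r values cannot settle it, because other differences among the libraries could hide a shared one. The main fit took the libraries as unpaired, and the replicate block called 338 genes and 2 members.

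Of the members, 5 turned direction. Pola2 was -0.0033 with RLE factors, -0.012 with totals only, -0.0033 with DESeq2, -0.0073 under the block with trend removal, -0.033 with trend removal, and -0.19 to 0.40 on leaving out each library. Fen1 was -0.82 with voom, -0.22 under the block, -0.59 under the block with trend removal, -0.019 with trend removal, and -0.14 to 1.02 on leaving out each library. Pcna was -0.059 and -0.090 under the block with trend removal and trend removal, and -0.076 to 0.35 on leaving out each library. Gins4 was -0.17 and -0.13 under these 2, and Gins3 -0.0048 with trend removal. The CDK inhibitor gene Cdkn2d was 0.0025 without WT replicate 3 and KO replicate 1. The cause of these changes was not tested.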
